A study of Mus musculus with 9 samples.

Results

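The genes described here are 10 macrophage genes for scavenging and lipid uptake: Cd36, Scarb1, Msr1, Marco, Stab1, Mrc1, Cd163, Cd68, Lpl and Slco2b1. The list is one of names and its rule uses no measured value, though it was drawn up with earlier results of these data known. Each gene is represented by the brightest of the array features (transcript clusters) that carry its symbol alone. Each of the 10 had 1 such cluster, and the array gave 14860 named genes in all. Most of the 10 encode receptors, but Lpl encodes a secreted lipase and Slco2b1 a membrane transporter.

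Scavenger receptors are surface proteins through which macrophages take up modified lipoproteins, dying cells, microbes and other debris, and fatty acids freed from lipoproteins enter by some of the same receptors. Osteoclasts, the cells that resorb bone, arise by differentiation and fusion of the same myeloid precursors that give rise to macrophages. CSF-1 keeps these precursors alive and lets them divide, and RANKL is the cytokine that drives them to become osteoclasts.

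The study followed gene expression in mouse myeloid precursors along this path with Affymetrix mouse exon arrays. Bone marrow of the strain C57Black6 was flushed and grown on plastic for 3 days with CSF-1 (100 ng/ml by the labels, a lower dose by the study's methods), which enriched for myeloid precursors in all groups, and the cells were then seeded in a commercial osteoclast precursor medium. The 3 groups, of 3 arrays each, were precursors given CSF-1 alone, precursors given CSF-1 and RANKL for 1.5 days, and precursors given CSF-1 and RANKL for 3 days. The labels give no culture time for CSF-1 alone, so time in culture and RANKL cannot be told apart. The study's methods call all data points biological replicates, but the labels do not say whether arrays of a group came from separate mice or cultures, so p-values measure only the spread between these arrays. All values are the deposited log2 signals after RMA, a method that corrects background, equalizes the distributions of the arrays and summarizes the probes of a cluster. The number of arrays limits the precision. A gene was called where limma's moderated test across all 14860 genes gave a Benjamini-Hochberg adjusted p under 0.05.

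The arrays spanned 0.39 to 14.09 log2 units, with medians between 5.02 and 5.22 and lower quartiles between 3.06 and 3.15. Of 10 osteoclast markers limma called 1 at 3 days (Mmp9) and 0 at 1.5 days against CSF-1 alone, although 10 and 8 passed an unadjusted p under 0.05. Their median change was 3.61 at 3 days and 2.22 at 1.5 days, with 10 and 9 of 10 above 0. Mmp9, a matrix protease of osteoclasts, was at 4.10, 4.09 and 4.84 with CSF-1 alone, 7.04, 10.47 and 10.55 after 1.5 days and 10.95, 11.86 and 11.94 after 3 days. Its 3-day call was lost in 7 of 9 fits that left out 1 array. Over the 9 fits the limma adjusted p was 0.000785 to 0.122, at changes of 7.06 to 7.56. Replicate 1 at 1.5 days stood apart, with a mean over the osteoclast list of 6.16 against up to 8.03 in its group, so the members' changes at 1.5 days are also given without it, while the other lists are given with all arrays. The 8 measured macrophage and monocyte markers averaged 9.17 to 9.24 at 3 days, 9.07 to 9.32 at 1.5 days and 9.09 to 9.58 with CSF-1 alone. Markers of granulocytes, dendritic cells, lymphoid, erythroid, adipose and stromal cells averaged between 3.15 and 3.84 per array, and limma called none of their genes in any comparison. At an unadjusted p under 0.05 and against CSF-1 alone, 4 of 11 granulocyte, 1 of 6 adipocyte and 1 of 8 lymphoid genes passed at 3 days, 2 of 6 adipocyte and 1 of 8 lymphoid genes at 1.5 days, and no gene of the other lists, where 10.5% of all genes passed at 3 days and 8.83% at 1.5 days. The 4 granulocyte genes (Mpo, Ctsg, Camp and S100a9) were all below 0. Over the whole granulocyte list 9 of 11 genes were below 0 at 3 days and 5 of 11 at 1.5 days, with medians of -0.23 and 0.00, beside -0.21 and -0.17 for the 10 members. The mean of that list was 3.15 to 3.34 at 3 days, 3.29 to 3.54 at 1.5 days and 3.39 to 3.50 with CSF-1 alone, with 5 of 11 genes under the lower quartile at 3 days, and its part in the members' values was not tested. Endothelial markers, likewise not called (0 of 7 unadjusted), averaged 4.16 to 4.34, with 3 of 7 genes under the lower quartile and Vwf the brightest at a mean of 8.35 with CSF-1 alone. The arrays measure RNA of whole cultures, in which fewer cells of a type and less RNA per cell cannot be told apart.

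Cd36, Slco2b1 and Stab1 stood lower on every RANKL array, at both times, than on any CSF-1 alone array. Of these, Cd36 and Slco2b1 fell at both times by the test across all genes, and Stab1 missed its threshold at both. The calls of Cd36 and Slco2b1 were lost in most fits that left out 1 array, as given below. Mrc1 stood below its CSF-1 alone arrays at 1.5 days and overlapped them at 3 days. Msr1, Scarb1, Lpl and Cd68 stayed among the bright genes of the arrays with no called change, and Marco and Cd163 were dim in every group.

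**Figure D1:**
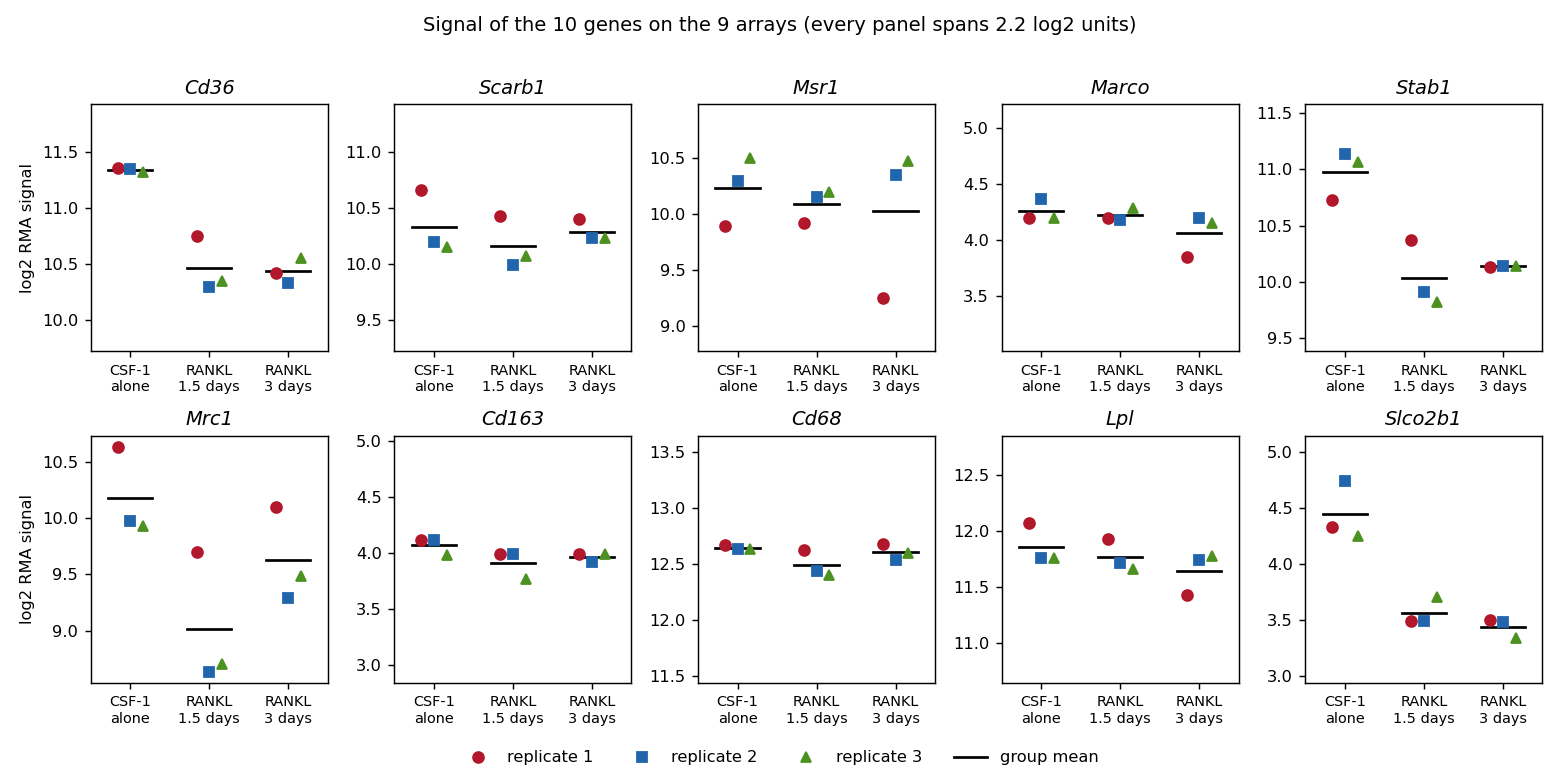
Deposited log2 RMA signal of the 10 genes (y axis) on the 9 arrays, grouped as CSF-1 alone, RANKL for 1.5 days and RANKL for 3 days (x axis); symbols mark the replicate number, bars the mean of 3 arrays, and each panel spans the same height. Cd36, Stab1 and Slco2b1 show a gap between the RANKL arrays and the CSF-1 alone arrays, while in Mrc1 replicate 1 lies above the other arrays of each group.

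The study is concerned with PU.1, a transcription factor of myeloid cells that binds GAGGAA, and with the factors that act beside it in osteoclasts, among them MITF, which binds the E-box CACGTG and the related M-box CATGTG. These motifs were searched on both strands in the 250 bases before the annotated start of each gene, in the promoter table of RefSeq for GRCm38.p6, which held 7 of the 10 genes (not Msr1, Scarb1 or Lpl). Shown here are the windows of the 3 bright genes whose arrays separated from CSF-1 alone at 1 or both RANKL times by more than 0.2. The start listed for Cd36 lies inside the annotated extent of the gene, so others may lie upstream. Capitals mark matches to the 3 motifs on either strand, so that TTCCTC and CACATG are GAGGAA and CATGTG read on the other strand, and the first pair in Mrc1 adjoins without overlap.
Cd36 (chr5:17835897-17836146, minus strand):
Cd36: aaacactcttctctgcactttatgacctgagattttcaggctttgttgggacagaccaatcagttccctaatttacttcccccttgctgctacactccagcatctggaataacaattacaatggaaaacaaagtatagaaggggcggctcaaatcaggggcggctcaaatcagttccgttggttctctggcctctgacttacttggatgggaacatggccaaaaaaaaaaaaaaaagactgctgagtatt
Stab1 (chr14:31168642-31168891, minus strand):
Stab1: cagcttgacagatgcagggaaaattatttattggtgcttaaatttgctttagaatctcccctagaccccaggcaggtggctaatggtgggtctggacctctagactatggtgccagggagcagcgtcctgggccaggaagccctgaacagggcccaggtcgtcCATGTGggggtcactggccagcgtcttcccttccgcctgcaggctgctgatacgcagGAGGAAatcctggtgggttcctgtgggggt
Mrc1 (chr2:14229164-14229413, plus strand):
Mrc1: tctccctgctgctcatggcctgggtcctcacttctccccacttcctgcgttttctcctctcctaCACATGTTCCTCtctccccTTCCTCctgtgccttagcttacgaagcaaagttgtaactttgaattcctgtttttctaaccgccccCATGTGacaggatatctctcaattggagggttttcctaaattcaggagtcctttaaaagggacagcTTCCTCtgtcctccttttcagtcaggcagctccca
GAGGAA occurred 3 times in the Mrc1 window and 1 time in that of Stab1, and CATGTG 2 times and 1 time, whereas the Cd36 window held none of the 3 motifs. Among the other members in the table, Marco and Cd68 each had 1 GAGGAA and Cd163 had no match. Slco2b1 has 3 start sites in the table, of which the one farthest downstream had 1 GAGGAA and 1 CATGTG and the other windows had none. Of all 32851 windows of this length, 23.3% held GAGGAA, 12.3% CATGTG and 6.02% CACGTG. These matches describe letters only and no binding was measured here. The study itself mapped PU.1 and MITF binding across the genome in precursors and osteoclasts. It reports PU.1 sites mostly in distal regions, which these windows do not cover, and its binding data were not used here.

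Cd36 is the fatty acid translocase, a class B scavenger receptor that binds long-chain fatty acids and oxidized lipoproteins. Its signal was 11.35, 11.34 and 11.32 with CSF-1 alone, 10.75, 10.29 and 10.35 after 1.5 days of RANKL, and 10.42, 10.33 and 10.55 after 3 days. The 3 arrays with CSF-1 alone lay within 0.03 of each other, and the nearest RANKL array was 0.57 lower at 1.5 days and 0.77 lower at 3 days. At 3 days Cd36 averaged 10.43 ± 0.11, against 11.34 ± 0.02 with CSF-1 alone (SD, n = 3 each), and the difference of -0.90 ± 0.12 (SE) passed the threshold with a limma adjusted p of 0.0311. On the linear scale the 3-day signal was 0.535 of that with CSF-1 alone, which on arrays may be compressed. At 1.5 days it averaged 10.46 ± 0.25 and the difference, -0.87 ± 0.12 (SE), had a limma adjusted p of 0.0427. Between the RANKL times the difference, 3 days minus 1.5 days, was -0.03 with a 95% interval of -0.31 to 0.25.

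Slco2b1, an organic anion transporter that carries steroid sulfates and other anions, was the other member that fell. Its signal was 4.33, 4.74 and 4.25 with CSF-1 alone, 3.49, 3.49 and 3.70 after 1.5 days and 3.50, 3.48 and 3.34 after 3 days. The RANKL arrays lay together near 3.5 and none reached the lowest array with CSF-1 alone, the gap being 0.55 at 1.5 days and 0.75 at 3 days. The log2 change was -1.0 ± 0.13 (SE) at 3 days with a limma adjusted p of 0.0311, and -0.88 ± 0.13 at 1.5 days with an adjusted p of 0.0489. This is a dim gene, at percentiles 26 to 28 of the named genes on the 3-day arrays, 26 to 29 on the 1.5-day arrays and 36 to 42 with CSF-1 alone. Whether it was above background was not tested, and no linear fold is given for it. The difference of 3 days minus 1.5 days was -0.12, with a 95% interval of -0.42 to 0.18.

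Stab1, or stabilin-1, is a receptor of alternatively activated macrophages that clears acetylated lipoproteins and the matrix protein SPARC. Its signal was 10.73, 11.14 and 11.07 with CSF-1 alone, 10.37, 9.91 and 9.82 after 1.5 days and 10.13, 10.14 and 10.14 after 3 days. The 3-day arrays were within 0.01 of each other, and every RANKL array lay below every CSF-1 alone array, by at least 0.59 at 3 days and 0.36 at 1.5 days. The log2 change was -0.84 ± 0.16 (SE, limma adjusted p = 0.0880) at 3 days and -0.95 ± 0.16 (limma adjusted p = 0.0678) at 1.5 days, so neither passed the threshold. Without replicate 1 at 1.5 days, which held the highest RANKL value of Stab1, the adjusted p was 0.0284 at 3 days and 0.0167 at 1.5 days, with changes of -0.84 and -1.12. Without any other single array the adjusted p was 0.0706 to 0.302 at 3 days and 0.0704 to 0.337 at 1.5 days. From 1.5 to 3 days the difference was 0.10, with a 95% interval of -0.26 to 0.47.

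Mrc1 encodes the mannose receptor, which takes up mannosylated glycoproteins and marks alternatively activated macrophages. Its signal was 10.64, 9.98 and 9.93 with CSF-1 alone, 9.70, 8.63 and 8.70 after 1.5 days and 10.10, 9.29 and 9.49 after 3 days. Replicate 1 was the highest array of every group, so the 1.5-day arrays ended 0.23 below those with CSF-1 alone while the 3-day arrays overlapped them. The log2 change at 1.5 days, -1.17 ± 0.35 (SE), was larger than that of any other member and had a limma adjusted p of 0.303. At 3 days it was -0.56 ± 0.35 with an adjusted p of 0.635. Within each replicate number Mrc1 was lower under RANKL, by -0.54, -0.69 and -0.44 at 3 days and by -0.94, -1.35 and -1.23 at 1.5 days, for replicates 1, 2 and 3. It was also higher at 3 days than at 1.5 days in each, by 0.40, 0.66 and 0.79, and the difference of the means, 0.62, had a 95% interval of -0.18 to 1.42 in the fit without pairs. With the replicate number as a block, the interval was 0.38 to 0.86 at a limma adjusted p of 0.523, so the difference was not called in either fit. When the fit allowed replicate 1 arrays a common offset from the others, Mrc1 passed the threshold at both RANKL times, with an adjusted p of 0.0472 at 3 days and 0.00670 at 1.5 days and the same changes. With the replicate block the adjusted p was 0.0913 at 3 days and 0.0259 at 1.5 days, and with replicates 2 and 3 alone 0.0613 and 0.00931, so only the 1.5-day difference passed in these 2 fits.

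**Figure D2:**
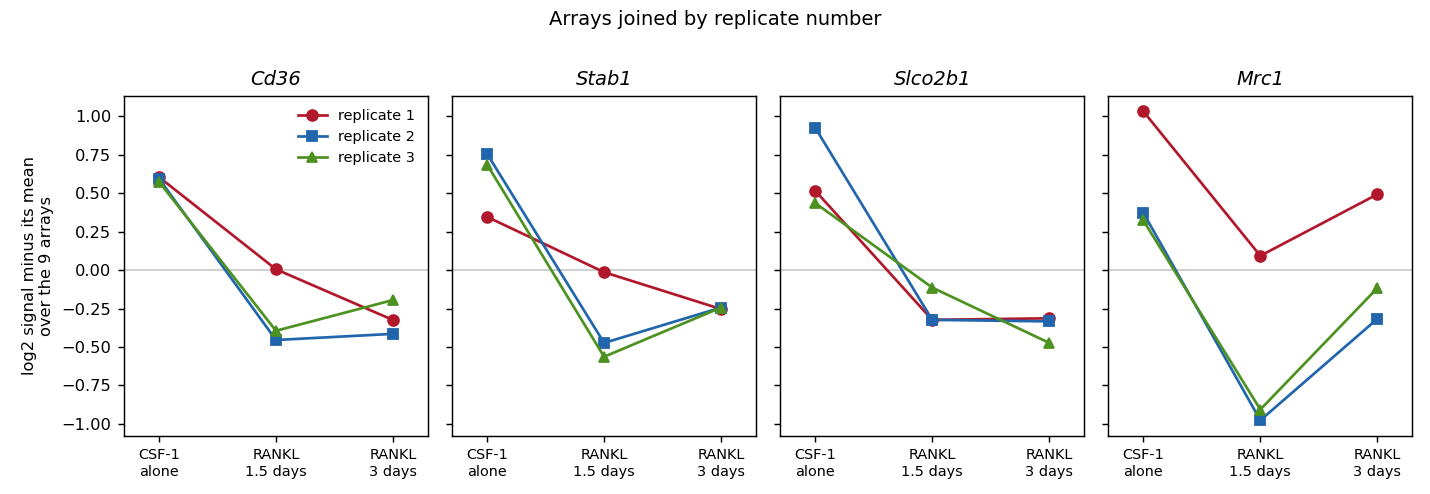
Log2 signal minus the gene's mean over the 9 arrays (y axis) for Cd36, Stab1, Slco2b1 and Mrc1 in the 3 groups (x axis), with arrays of the same replicate number joined by a line; the numbers are not known to mark shared cultures. Mrc1 is lowest at 1.5 days for every number, and its replicate 1 line runs above the others, while the Stab1 lines meet at 3 days.

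Msr1, the class A scavenger receptor for acetylated and oxidized lipoproteins, showed no called change, and its pooled SD within groups, 0.44, was the widest after that of Mrc1 (0.48). Its signal was 9.89, 10.29 and 10.50 with CSF-1 alone, 9.92, 10.15 and 10.19 after 1.5 days and 9.25, 10.35 and 10.47 after 3 days. Replicate 1 was the lowest array of each group, in contrast to Mrc1, and the groups overlapped. The log2 change of -0.20 ± 0.31 (SE, limma adjusted p = 0.866) at 3 days rested on that replicate, and the differences within replicates 1, 2 and 3 were -0.64, 0.06 and -0.03. At 1.5 days the change was -0.14 with an adjusted p of 0.994. The 95% interval at 3 days, -0.93 to 0.52, took in the change of Cd36.

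Scarb1, the class B receptor that exchanges cholesterol with high-density lipoprotein, stood at 10.66, 10.20 and 10.15 with CSF-1 alone, 10.43, 9.99 and 10.07 after 1.5 days and 10.40, 10.23 and 10.23 after 3 days. Replicate 1 was again the highest in each group and the groups overlapped. The change was -0.05 at 3 days (95% interval -0.43 to 0.33) and -0.17 at 1.5 days (-0.55 to 0.20). Cd36 and Scarb1, both class B receptors, thus had intervals at 3 days that did not meet, although their difference was not tested.

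Lpl, lipoprotein lipase, frees fatty acids from triglyceride-rich lipoproteins and was among the brightest genes, at percentile 99 or above on each array. Its signal was 12.07, 11.76 and 11.76 with CSF-1 alone, 11.93, 11.72 and 11.66 after 1.5 days and 11.43, 11.74 and 11.78 after 3 days. Apart from replicate 1, which was highest in the first pair of groups and lowest at 3 days, the arrays lay within 0.12 of each other. The change was -0.21 at 3 days (limma adjusted p = 0.630) and -0.09 at 1.5 days (0.967).

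Cd68, or macrosialin, is a glycoprotein of late endosomes and lysosomes that is used as a general macrophage marker, and it was the brightest member. Its signal was 12.67, 12.63 and 12.63 with CSF-1 alone, 12.62, 12.44 and 12.40 after 1.5 days and 12.68, 12.53 and 12.60 after 3 days. The 1.5-day arrays lay below those with CSF-1 alone by as little as 0.01, and the 3-day arrays overlapped them. The change was -0.04 at 3 days (95% interval -0.21 to 0.13) and -0.16 at 1.5 days (-0.32 to 0.01), the narrowest intervals of the 10.

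Marco, a class A receptor of particle-clearing macrophages, and Cd163, the receptor for haptoglobin-hemoglobin complexes, were dim. Marco was at 4.20, 4.37 and 4.20 with CSF-1 alone, 4.20, 4.18 and 4.29 after 1.5 days and 3.85, 4.20 and 4.15 after 3 days. Cd163 was at 4.12, 4.12 and 3.98 with CSF-1 alone, 3.99, 3.99 and 3.77 after 1.5 days and 3.99, 3.92 and 3.99 after 3 days. The groups overlapped or touched for both genes, and no array placed either above percentile 38. Neither gene passed the test, with limma adjusted p values of 0.570 for Marco and 0.690 for Cd163 at 3 days and of 0.994 and 0.652 at 1.5 days.

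By the count over members, 2 of 10 fell at 3 days and none rose, where 0.397% of all 14860 genes were called and 0.0538% were called lower. At 1.5 days likewise 2 of 10 fell and none rose, against 0.417% of all genes called and 0.101% called lower. With the replicate number as a block, 1 of 10 fell at 3 days (Cd36), where 97 of the 14860 genes were called. In that fit 1 of 10 fell at 1.5 days (Mrc1), where 71 genes were called. The 3-day arrays lay wholly below those with CSF-1 alone for 3 members (Cd36, Stab1, Slco2b1), as did 4.91% of all genes. The 1.5-day arrays did so for 5 members (those and Mrc1 and Cd68), as did 6.05% of all genes. All 10 fitted changes were below 0 at both times, with medians of -0.21 at 3 days and -0.17 at 1.5 days, against -0.01 and 0.01 over all genes, of which 52% and 46.8% were below 0. At 3 days, 8 of 10 were at or below 0 with replicates 2 and 3 alone, where Lpl was at 0. Without CSF-1 alone replicate 1 or 3-day replicate 1, 9 of 10 were below 0 at 3 days. At 1.5 days 9 of 10 were below 0 without CSF-1 alone replicate 1 or 2. The RANKL times were compared with the same CSF-1 alone arrays, so the counts at the 2 times are not independent.

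Between 3 days and 1.5 days limma called none of the 10 members and 0% of all genes, and no member's arrays separated between the times, whereas those of 6.79% of all genes did. At an unadjusted p under 0.05 the counts were 0 members and 5.19% of all genes, and with the replicate number as a block 1 member (Mrc1) and 7.73% of all genes, again with none called after adjustment. Of the 10, 5 were above 0 and 5 below, with a median of 0.01.

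**Figure D3:**
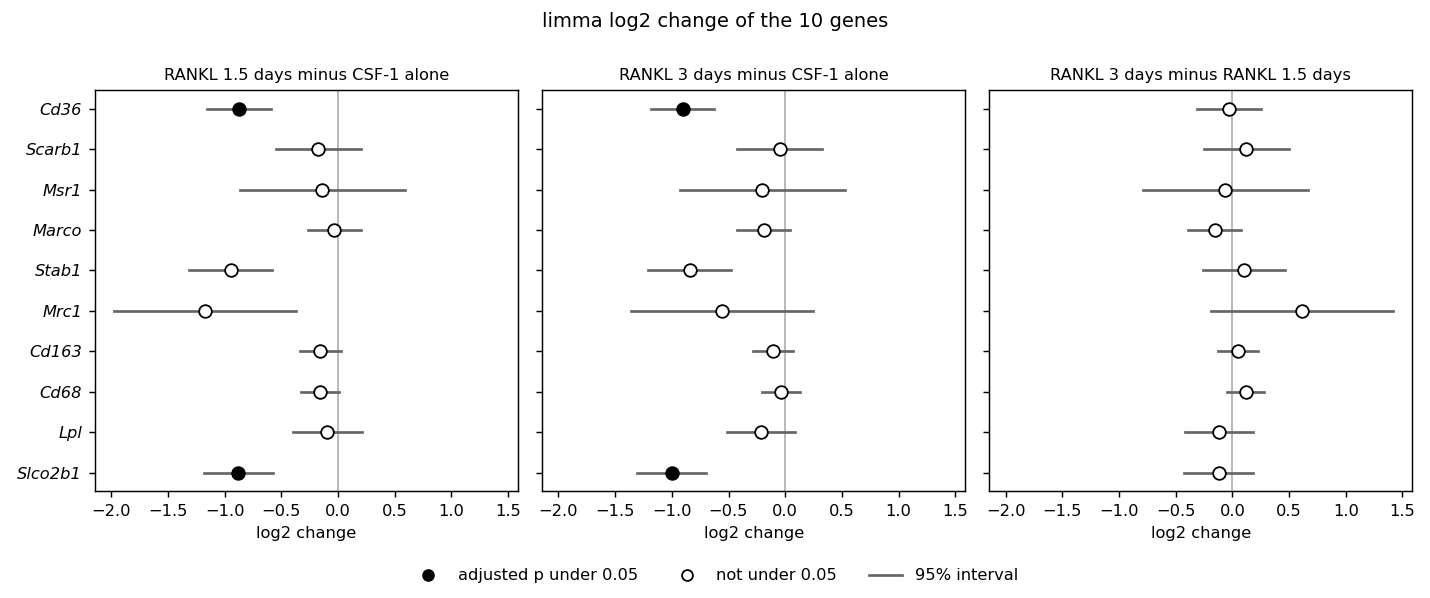
limma log2 change of each gene (x axis) with its 95% interval, in the comparisons of RANKL for 1.5 days with CSF-1 alone, RANKL for 3 days with CSF-1 alone, and 3 days with 1.5 days; filled points had an adjusted p under 0.05. Only Cd36 and Slco2b1 are filled, at -0.87 and -0.88 at 1.5 days and -0.90 and -1.0 at 3 days, and the Mrc1 and Msr1 intervals are the widest.

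The calls of Cd36 and Slco2b1 depended on single arrays, while the sizes of their changes varied little. At 3 days the Cd36 change stayed between -0.96 and -0.85 with any 1 array left out, but its adjusted p was 0.0707, 0.155 and 0.147 without CSF-1 alone replicates 1, 2 and 3, 0.0558 and 0.0739 without 1.5-day replicates 2 and 3, and 0.0577, 0.0958 and 0.107 without 3-day replicates 1, 2 and 3. For Slco2b1 the 3-day change stayed between -1.10 and -0.85, and the adjusted p was 0.0589, 0.0832 and 0.106 without CSF-1 alone replicates 1, 2 and 3, 0.0725 and 0.0685 without 1.5-day replicates 2 and 3, and 0.0817 and 0.136 without 3-day replicates 2 and 3. At 1.5 days the Cd36 call was kept only without 1.5-day replicate 1 (change -1.02, adjusted p = 0.00518) or 3-day replicate 1, and was otherwise between 0.0759 and 0.201. The 1.5-day call of Slco2b1 was lost without any 1 of the 9 arrays, at an adjusted p of 0.0593 to 0.251.

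At replicate 1 of the 1.5-day group, where osteoclast markers were lowest among RANKL arrays, 7 of the 10 members lay above their group mean, by 0.17 on average over all 10. Cd36 was at 10.75 there against 10.29 and 10.35 on the other arrays of the group, and Stab1 at 10.37 against 9.91 and 9.82. Without that array the 1.5-day changes were -1.02 for Cd36, -1.12 for Stab1, -1.52 for Mrc1 and -0.85 for Slco2b1. For Msr1, Scarb1, Lpl, Cd68, Marco and Cd163 they were -0.06, -0.31, -0.17, -0.22, -0.02 and -0.19, with limma adjusted p values of 0.271 or more. The part of osteoclast marker levels in these values was not tested.

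The genes whose profile over the 9 arrays was most like that of Cd36 were found by the root mean square difference after centring each gene on its mean, among 7429 genes brighter than the median gene. They were Npl, a sialic acid lyase, at 0.12, S1pr1, a receptor for sphingosine 1-phosphate, at 0.12, Stab1 at 0.14, the interleukin 7 receptor chain Il7r at 0.15 and the chemokine Ccl3 at 0.15, where the median gene differed by 0.46. For Slco2b1 they were Hmox1, which degrades heme, at 0.18, S1pr1 at 0.19, the survival factor Bcl2 at 0.20, Cd36 at 0.22 and Tlr13, a sensor of bacterial RNA, at 0.22, against a median of 0.50. The profiles of Mrc1 and Msr1 differed by 0.82, the widest distance between any of the members.

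Related genes were read from lists that the members do not belong to. Of 18 measured genes of lipid handling and its nuclear receptors, Nr1h3 rose and 17 were not called at either RANKL time. Nr1h3 encodes LXR alpha, the nuclear receptor for oxysterols that induces cholesterol efflux genes. Its signal was 7.0, 6.67 and 6.71 with CSF-1 alone, 7.74, 7.70 and 7.77 after 1.5 days and 7.73, 8.13 and 8.25 after 3 days, so all RANKL arrays lay above those with CSF-1 alone. The log2 change was 1.24 ± 0.14 (SE, limma adjusted p = 0.0226) at 3 days and 0.94 ± 0.14 (limma adjusted p = 0.0489) at 1.5 days, in the opposite direction to Cd36. Its 3-day adjusted p was above 0.05 without CSF-1 alone replicates 2 and 3 (0.113 and 0.108), 1.5-day replicates 2 and 3 (0.0558 and 0.0598) and 3-day replicates 2 and 3 (0.0678 and 0.0975), at changes of 1.14 or more. At 1.5 days the call was kept only without 3-day replicate 1, and the adjusted p otherwise was 0.0618 to 0.235.

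The cholesterol exporter Abcg1 had the next largest change of that list at 3 days, 0.91 (limma adjusted p = 0.269). Abcg1 stood at 11.12, 10.48 and 10.43 after 3 days, against 10.34, 9.48 and 9.49 with CSF-1 alone. Against CSF-1 alone, 10 of the 18 lipid handling genes were below 0 at 3 days (median -0.04) and 12 at 1.5 days (median -0.11). Over all genes 52% and 46.8% were below 0. At each time 3 of the 18 passed an unadjusted p under 0.05, as did 10.5% and 8.83% of all genes. From 1.5 to 3 days 15 of the 18 lipid handling genes were above 0, with a median of 0.20, where 46.2% of all genes were above 0, but limma called none (2 unadjusted).

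None of the 16 other scavenger and endocytic receptors measured was called by limma. At an unadjusted p under 0.05, 3 passed at 3 days and 1 at 1.5 days, beside 10.5% and 8.83% of all genes. The medians of the 16 were -0.03 at 3 days and -0.04 at 1.5 days. Cd5l, a secreted macrophage protein with scavenger receptor domains, had the largest change at 3 days, -0.89 (limma adjusted p = 0.342). It was at 6.21, 6.16 and 6.54 after 3 days, against 6.42, 7.50 and 7.66 with CSF-1 alone, where replicate 1 overlapped the 3-day arrays. At 1.5 days it was at 5.81, 5.55 and 5.72, below all CSF-1 alone arrays, with a change of -1.5 (limma adjusted p = 0.124). Cxcl16, a scavenger receptor for oxidized lipoprotein that is also a chemokine, had a change of 0.62 (limma adjusted p = 0.397).

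The 14 lipoprotein receptors and lipolysis partners included no gene called by limma, with medians of -0.06 at 3 days and -0.12 at 1.5 days. Unadjusted, 4 passed at 3 days and 3 at 1.5 days, beside 10.5% and 8.83% of all genes. At each time 4 of the 14 lay wholly below CSF-1 alone, as did 4.91% of all genes at 3 days and 6.05% at 1.5 days. Wholly above lay 1 at 3 days and 2 at 1.5 days, as did 6.59% and 8.63% of all genes. The lipoprotein receptor Lrp8 and the sorting receptor Sorl1 had the largest 3-day changes of the list, -0.73 (limma adjusted p = 0.336) and -0.44 (0.491). Lrp8 was at 6.48, 7.46 and 7.49 after 3 days, against 7.79, 7.92 and 7.92 with CSF-1 alone. Its change ranged from -0.91 to -0.40 with 1 array left out. Among 11 organic anion transporters other than Slco2b1 limma called none, with 0 also unadjusted, and 8 had group means under the lower quartile. The largest 3-day changes of that list were 0.30 for Slco3a1 (limma adjusted p = 0.577) and 0.20 for Slco4a1 (0.763), both above 0.

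Receptors and bridging proteins for apoptotic cells were not called by limma in 12 of 12 cases (2 passed unadjusted at 3 days and 4 at 1.5 days). Their median was -0.13 at 3 days and -0.43 at 1.5 days, with 10 of 12 below 0 at each time, where 52% and 46.8% of all genes were below 0. Wholly below CSF-1 alone lay 3 of 12 at 3 days and 6 of 12 at 1.5 days, as did 4.91% and 6.05% of all genes. None of the 12 lay wholly above. Of all genes, 10.5% passed unadjusted at 3 days and 8.83% at 1.5 days. Cd300lf, a phosphatidylserine receptor, had a 3-day change of -0.55 (limma adjusted p = 0.438) and Gas6, the ligand that bridges dying cells to the Axl family, one of -0.52 (0.690). Gas6 was at 11.48, 10.13 and 10.17 after 3 days, against 11.26, 11.08 and 11.01 with CSF-1 alone, so 3-day replicate 1 lay above all of those. Of the 8 macrophage and monocyte markers limma called none (2 unadjusted at 3 days and 3 at 1.5 days), and the largest 3-day changes were -1.59 for Ccr2 (limma adjusted p = 0.103) and 0.80 for Aif1 (0.482).

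**Figure D4:**
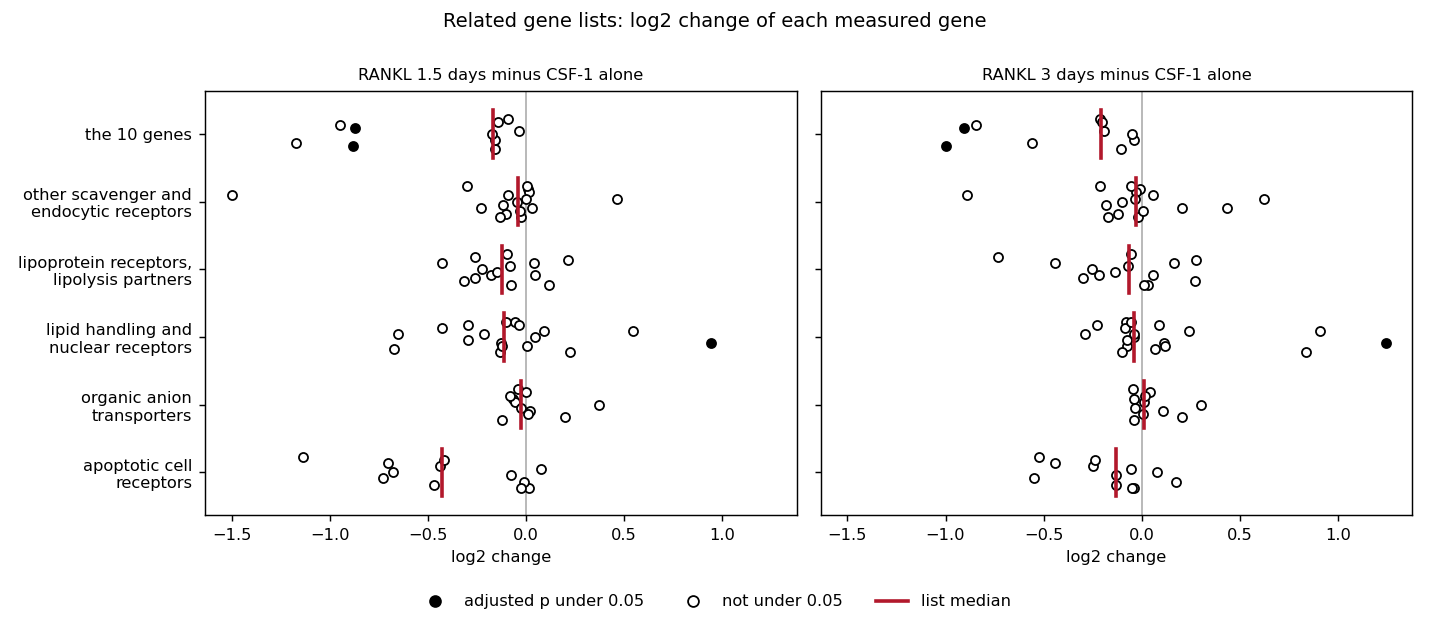
limma log2 change (x axis) of each measured gene of 6 lists, at 1.5 days and at 3 days against CSF-1 alone; filled points had an adjusted p under 0.05 and red lines mark list medians. The filled points are Cd36 and Slco2b1 below 0 and Nr1h3 above 0 at 1.24 and 0.94, and the apoptotic cell receptors have a median of -0.43 at 1.5 days.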

How the data were processed

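Total RNA of the 9 mouse samples was hybridized to Affymetrix mouse exon arrays (MoEx-1_0-st). The deposited values are log2 signals per transcript cluster, made by the authors with RMA in Affymetrix Expression Console, as named in the submitters' processing notes. Tool versions, the genome build and filters were not given in the sources used here. Every column of per-sample values was used (0 left out). Arrays were compared as deposited and no 2 held identical values.

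Of 23332 clusters, 14996 had 1 gene symbol in the platform annotation, 1019 had several and 7317 were not listed. Of those with 1 symbol, 14941 were updated through the gene ID to RefSeq names, and the brightest cluster by mean was kept for each of 135 symbols with more than 1, which left 14860 genes.

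limma (version 3.58.1, R 4.3.3) was fitted to all 9 arrays with a mean per group, and two-sided p-values were adjusted by the Benjamini-Hochberg method over all genes. The script was tested on simulated data with known changes. An exact permutation test of 3 arrays against 3 cannot give a p below 0.1 and was not used. Deviations from the group means, compared between 3-day and 1.5-day arrays, correlated over genes at 0.37, 0.21 and 0.15 for the same replicate number. For different numbers they correlated at -0.32 to 0.18, highest for 3-day replicate 2 with 1.5-day replicate 3. Pairing by number was therefore not established. The fit with the replicate number as a block is given beside the fit without it where it changes the count of members called. Promoter sequences are from RefSeq, GRCm38.p6. Figures were drawn with matplotlib 3.10.9.

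All 10 members are given on every array. From the lists of related genes and of macrophage markers, genes called in any comparison and the 2 with the largest 3-day change were named. For each called member the 5 nearest profiles were named. Among the markers of other cells, Mmp9 was named as called, the granulocyte genes for their unadjusted p and Vwf for its signal. The members and lists were chosen with earlier results of these data known. Alternatives covered the replicate block, an array set term, replicates 2 and 3 alone, renormalization, centring, filters on dim genes, the prior, array weights, the choice of clusters, 6 arrays per fit, the unpaired t-test named in the methods, and leaving out each array. The array set term gave the replicate 1 arrays a common offset from the others. It is no recorded batch, since the labels name no array set.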

Additional observations from a re-analysis of the deposited data

How the results depend on the processing

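For 3 days against CSF-1 alone, 59 genes and 2 members were called. Counts were 97 genes and 1 member (Cd36) with the replicate block, 215 genes with the array set as a term (3 members) and 334 with replicates 2 and 3 alone (Cd36 and Stab1). They were 95 genes and 1 member without the dimmest 4952 genes, which removed Slco2b1, and 111 genes without the dimmest 7430 (Cd36 and Stab1). Weights per array gave 65 genes and 1 member. Over all clusters 19 genes and 0 members were called, and with the 6 arrays of the comparison 31 genes and 1 member. An unpaired t-test called 0 and 0 after adjustment (964 genes and 3 members at an unadjusted p under 0.05). Leaving out 1 array gave 4 to 102 genes and 0 to 3 members.

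For 1.5 days against CSF-1 alone, 62 genes and 2 members were called. Counts were 71 genes and 1 member (Mrc1, adjusted p = 0.0259) with the replicate block, 205 genes with the array set term, 474 with replicates 2 and 3 alone, 95 and 103 without the dimmest 4952 and 7430 genes, 607 genes and 4 members with weights per array, 15 genes and 0 members over all clusters, 26 genes and 0 members with 6 arrays, and 6 genes and 0 members with the t-test (1332 genes and 4 members unadjusted). Leaving out 1 array gave 2 to 139 genes and 0 to 2 members. Quantile normalization again called 64 genes and 3 members, and centring on medians 67 genes and 3 members, Stab1 added in both.

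For 3 days minus 1.5 days no setting run called any gene (0 to 0 with 1 array left out, and 411 genes unadjusted by the t-test).

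Same-numbered arrays correlated at 0.33, 0.06 and 0.12 between 3 days and CSF-1 alone. Between 1.5 days and CSF-1 alone they correlated at 0.27, 0.05 and 0.13. Replicate 2 of one group with replicate 3 of the other correlated at 0.18 and 0.17 in the first comparison and 0.14 and 0.07 in the second. The labels give no pairing in any comparison, so the replicate block stands for no known pairing. For 3 days minus 1.5 days it left the count at 0.

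Some small changes turned direction. At 3 days against CSF-1 alone, Msr1 was 0.015 and Scarb1 0.055 with replicates 2 and 3 alone, and with 1 array left out Msr1 ranged from -0.43 to 0.18, Scarb1 from -0.14 to 0.11 and Slco4a1 from -0.043 to 0.35 (the turned ends without 3-day replicate 1 for Msr1 and Slco4a1 and without CSF-1 alone replicate 1 for Scarb1). At 1.5 days, Lpl ranged from -0.17 to 0.01 (without CSF-1 alone replicate 1) and Marco from -0.067 to 0.023 (without CSF-1 alone replicate 2). For 3 days minus 1.5 days, Cd36, Msr1 and Lpl were 0.12, 0.24 and 0.07 with replicates 2 and 3 alone; Cd36 and Msr1 were 0.042 and 0.11 with weights per array; and with 1 array left out Cd36 ranged from -0.12 to 0.11 (above 0 without 1.5-day replicate 1 or 3-day replicate 2), Msr1 from -0.29 to 0.32 (without 3-day replicate 1), and, below 0 without 1.5-day replicate 3, Cd163 from -0.023 to 0.087 and Stab1 from -0.0033 to 0.27. The causes were not tested. Every setting run kept Cd36, Stab1, Slco2b1 (where measured) and Mrc1 below 0 against CSF-1 alone at both times. Signals under percentile 38 (Marco, Cd163, Slco2b1 under RANKL) limit what a change in those genes can show.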
